A study of Mus musculus with 2 samples.

Results

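Migratory dendritic cells were taken from 2 mouse lung libraries of single-cell RNA sequencing as cells chosen by 8 genes and a limit on mitochondrial transcripts. A member held at least 1 unique molecular identifier (UMI, 1 counted RNA molecule) of Ccr7, at least 1 of Fscn1 and at least 1 of any of the 4 genes Ccl22, Cacnb3, Il4i1 and Socs2. It held no UMI of the T cell gene Cd3e or the B cell gene Cd79a, and at most 10% of its UMIs came from mitochondrial genes. Of 14971 cells within that limit, 75 were members, of which 8 came from the control library and 67 from the fibrosis library.

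Dendritic cells take up material in a tissue, cut it into peptides and show these to T cells on MHC molecules. On maturation they start to make Ccr7, a chemokine receptor that guides them along lymphatic vessels to the draining lymph node, and Fscn1, an actin-bundling protein that shapes their long processes. In this state they are known to slow uptake, to raise co-stimulatory molecules and to secrete chemokines that attract T cells. The resident lung dendritic cells fall into type 1, marked by Xcr1 and Clec9a and known for presentation to CD8 T cells, and type 2, marked here by the lectin Cd209a.

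Each library came from the lung of 1 male C57Bl/6J mouse aged 3 months, 1 labelled control and 1 labelled fibrosis. The mice received 100 µg of TiO2 or of crocidolite asbestos into the trachea, and lungs were taken 14 days later. TiO2 is a mineral particle and crocidolite a fibre that scars the lung. The labels do not tie either agent to a library, and each library is named here by its group. With 1 mouse per group there was no test between groups, and intervals are 95% exact intervals that cover counting error only. Whole lungs were perfused and digested with dispase and DNase I, and cells were run on the 10x 3′ V2 chemistry, which counts the 3′ ends of transcripts.

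The members of the fibrosis library had a median of 5372 UMIs (2055 to 44296), the type 1 cells 6469 and the type 2 cells 5085, over 67, 245 and 204 cells. The 8 control members had a median of 5886 UMIs (2834 to 7183). In all, the members held 420542 UMIs in the fibrosis library and 42915 in the control library. The libraries shared 89 barcodes, and 2 members of the fibrosis library and none of the control library carried a shared barcode.

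The label was set beside a list chosen with earlier results of these data known, so the outcome is a description and no independent check. The list held 24 markers of migratory dendritic cells that the rule did not use. Of these, 23 had at least 20 UMIs in the groups compared, and all 23 were at least 2-fold higher in the members than in type 1 and than in type 2 cells of the fibrosis library, beside 10.9% and 12.4% of all genes tested. Their median log2 ratio was 4.50 against type 1 and 4.33 against type 2. The summed level of the 24 genes ran from 12.8 to 353 UMIs per 10000 among the fibrosis members, with a median of 141, and from 45.0 to 258 with a median of 123 among the control members. Examples were Tmem123 with 662 UMIs in 65 of the 67 cells, Samsn1 with 548 in 65, Anxa3 with 326 in 61 and Tbc1d4 with 323 in 64.

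In the fibrosis library 3 members went against the label and are given apart. Their summed level of the 24 markers was 12.8, 18.8 and 25.3 per 10000, against 57.3 in the next lowest fibrosis member. The deepest of them held 44296 UMIs, 7501 of them from Scgb1a1, the secretory protein of club cells. Another held 53 UMIs of Col1a1, 90 of Col3a1 and 429 of Mgp, genes of fibroblasts. The last held 136 UMIs of Ccl21a, 18 of Mmrn1 and 31 of Cldn5, genes of lymphatic and other endothelium, where Ccl21a is a ligand of Ccr7. Together they held 15.5% of the UMIs of the 67 members. The limit of 30 per 10000 that set them apart was chosen after the cells had been seen, and results are given for 67 members, with the other 64 beside them where a call named here changed.

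Markers of other cell types were measured in the members beside these results. The T, B and NK cell lists had a median of 0 per 10000 in both libraries. Of 9 listed monocyte genes 5 had a UMI in the fibrosis members, with summed levels of 0 to 6.87 per 10000, and of 9 alveolar macrophage genes 5 had one, with 0 to 21.8. Among the control members 1 held 19 UMIs of the monocyte list (32.9 per 10000), 14 of the interstitial macrophage list and 150 of Lyz2. Its summed level of the 24 migratory markers, 45.0 per 10000, was the lowest of the control members. Neutrophil genes stood at a median of 2.40 per 10000 and reached 990 in the highest fibrosis member. The club and alveolar type 2 list stood at a median of 44.5 per 10000 in the fibrosis members and 50.4 in the control members. In 11 fibrosis members and 1 control member another cell type's list reached at least 10 UMIs, or 500 for the club and alveolar type 2 list, limits set after the cells had been seen. Whether these were mixed droplets was not tested. Of the 386 fibrosis cells with the highest doublet scores 2 were members, and of the 515 control cells none was.

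The members made up 0.0997% (interval 0.0430 to 0.196) of kept control cells against 0.965% (0.748 to 1.22) of kept fibrosis cells, 8 of 8026 against 67 of 6945. Among the dendritic cells defined by rule, which are the members with type 1 and type 2 cells, the share was 3.23% (1.40 to 6.26) against 13% (10.2 to 16.2). The members were thus the rarest of the 3 groups in both libraries, beside 126 type 1 and 114 type 2 cells in the control library. The rule chose the cells by their counts, with earlier results of these data known, so these shares are a description. Their intervals cover counting error only and not the spread between mice. Without the 3 members set apart the fibrosis shares were 0.922% and 12.5%. The 11 fibrosis members and 1 control member that held another cell type's markers could also be left out. The shares were then 0.806% and 11.1% in the fibrosis library and 0.0872% and 2.83% in the control library. The shallowest kept control cell had 1460 UMIs and the shallowest kept fibrosis cell 1915, and with the same floor in both the control shares were 0.121% and 3.32%. The share of kept cells moves with every other cell type in the suspension, and mouse, particle and library cannot be told apart.

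**Figure D1:**
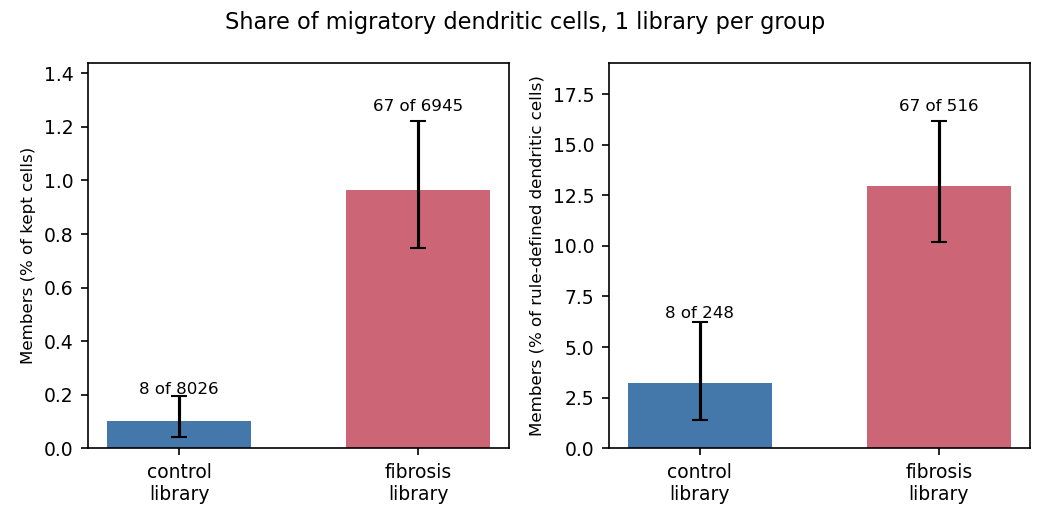
Share of migratory dendritic cells in each library, in percent of kept cells (left) and of rule-defined dendritic cells (right), with exact 95% binomial intervals as error bars and the cell numbers above them. The fibrosis library lies above the control library in both panels, at 0.965% against 0.0997% and at 13% against 3.23%.

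The genes of the rule are a description, since they chose the members. In the fibrosis members Ccr7 had a median of 10.4 UMIs per 10000 (0.226 to 127) and Fscn1 13.8 (0.226 to 93.1). Ccl22, a chemokine that binds Ccr4 on T cells, was counted in 58 cells, Socs2, a brake on cytokine signalling, in 57, the calcium channel subunit gene Cacnb3 in 56 and Il4i1, an amino acid oxidase, in 49. All 4 of these further genes were present in 33 of the 67 members, 3 in 23, 2 in 8 and only 1 in 3. Of the 8 control members 4 had all 4 genes and 3 had only 1. Just outside the rule, 3 cells of each library had Ccr7 and Fscn1 but none of the 4 genes. A further 5 fibrosis cells and 1 control cell were left out for a Cd3e or Cd79a UMI, and 2 fibrosis cells for mitochondrial UMIs. Cells with at least 2 Fscn1 UMIs but no Ccr7, Cd3e or Cd79a UMI numbered 18 in the fibrosis and 8 in the control library. The same count was 21 and 3 for Il4i1 and 13 and 8 for Ccl22. These cells may overlap and were not assigned a type. Just inside, 5 fibrosis members had exactly 1 Ccr7 UMI, 6 exactly 1 Fscn1 UMI and 3 of these both. Type 1 and type 2 cells of the fibrosis library held Ccr7 in 5 of 245 and 3 of 204 cells.

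The comparison with type 1 and type 2 cells of the fibrosis library asks what else sets the members apart from the resident dendritic cells. Of 7821 genes with at least 20 UMIs against type 1, 856 (10.9%) were at least 2-fold higher and 1477 (18.9%) at least 2-fold lower in the members. Of 6346 genes against type 2, 789 (12.4%) were higher and 1145 (18.0%) lower. These shares are the background for the counts below, in which "higher" and "lower" mean at least 2-fold in counts per 1000000 UMIs (CPM). Ratios are log2 of summed counts with 0.5 UMIs added. The median ratio of all tested genes was −0.16 against type 1 and −0.13 against type 2, and −0.32 and −0.26 with 64 members. Type 1 and type 2 comparisons share the members, so their values are given side by side and not as support for each other. The comparison groups include 28 type 1 and 22 type 2 cells with at least 10 UMIs of alveolar macrophage genes.

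Chemokines stood out in a few genes rather than as a class. Of 8 listed chemokines tested against type 1, 3 were higher and 2 lower, and of 5 against type 2, 3 were higher and 1 lower. The 3 were the same in both comparisons, Ccl5, Ccl17 and Cxcl16. Ccl5, which draws T cells and monocytes, had 2106 UMIs in 50 of the 67 members, 140 in 42 type 1 cells and 96 in 22 type 2 cells. Per 10000 UMIs the members ran from 0 through a median of 18.1 to 684, while both other groups had a median of 0. The log2 ratio was 5.97 (5.73 to 6.24) against type 1 and 5.83 (5.54 to 6.15) against type 2. At 1500 UMIs per cell 61.2% of members still had a Ccl5 UMI, against 5.71% of type 1, 4.41% of type 2 and 2.85% of alveolar type 2 epithelial cells, which should lack it and had a median of 6203 UMIs. Without thinning these shares were 74.6%, 17.1%, 10.8% and 12.6%.

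Ccl17, the other listed Ccr4 ligand beside Ccl22, had 1222 UMIs in 51 members, 553 in 60 type 1 cells and 943 in 88 type 2 cells. The members ran from 0 through 6.48 to 273 per 10000, so the groups overlapped widely. Its log2 ratio was 3.21 (3.07 to 3.36) against type 1 and 1.76 (1.63 to 1.88) against type 2. Cxcl16, a membrane-bound chemokine, was in 64 of the 67 members and stood at 723, 166 and 89.3 CPM in members, type 1 and type 2. Ccl6 and the interferon-induced Cxcl9 were lower than in type 1, Ccl6 at 78 UMIs against 2075 and Cxcl9 at 1 against 27, which lay in 2 type 1 cells.

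Among cytokines the same 3 of 7 tested genes (of 6 against type 2 with 64 members) were higher against each group: Il12b, Il15ra and Il15. Il12b encodes the p40 subunit that interleukin 12 and interleukin 23 share. It had 143 UMIs in 17 members and none in the 245 type 1 and 204 type 2 cells. Of these 143 UMIs 86 (60.1%) came from a single cell, and the summed level was at least 199.9-fold higher than in type 1 and at least 124-fold higher than in type 2 cells, against a floor of 3 UMIs in each comparison group. At 1500 UMIs 19.4% of members had an Il12b UMI, and without thinning 25.4%, beside 0 of 983 alveolar type 2 epithelial cells, where a limit of 3 counts allows a share with a UMI of up to 0.305%. Il15ra and Il15, the receptor chain that presents interleukin 15 and its ligand, had log2 ratios of 3.05 and 2.07 against type 1 and 4.03 and 2.41 against type 2. Il18 was lower against each group, with 2 UMIs in the members and 133 in type 1 cells. Tnf was also lower against type 2 cells, at 2 UMIs against 37.

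Genes of the NF-kappaB pathway were mostly higher in the members. This pathway turns signals such as Cd40 ligation and cytokines into transcription through Rel family proteins, which inhibitors such as Nfkbia hold in the cytoplasm. Of its 17 genes, 15 were higher than in type 1 and 12 higher than in type 2, and none was lower. The list median was 2.5 against type 1 and 1.42 against type 2, beside −0.16 and −0.13 for all genes. Of the DNA-binding subunits, Relb had 257 UMIs in 60 members, 28 in type 1 and 22 in type 2 cells. It ran from 0 through a median of 6.54 to 34.4 per 10000 in the members, and no type 1 or type 2 cell went above 6.70, so the groups overlapped at the low end. Its log2 ratio was 5.24 (4.70 to 5.88) and 4.90 (4.30 to 5.63). Rel followed with 3.33 and 2.31, Nfkb2, the partner of Relb in the alternative pathway, with 2.5 and 1.05, and Rela with 1.55 and 1.3. Nfkb1 was within 2-fold in both comparisons, at 0.76 and −0.45. Of the upstream parts, the kinase gene Map3k14 had 2.61 and 1.42, and the adaptor genes Traf1, Birc2 and Birc3 had 3.40, 3.78 and 2.70 against type 1. The inhibitors and feedback genes were higher as well, with Nfkbia at 713, 188 and 218 CPM and Tnfaip3 at 54.7, 13.6 and 21.9 CPM in members, type 1 and type 2.

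Promoters of this list are shown because most of its genes were higher in the members. Of its 17 genes 13 had a promoter in the RefSeq table of GRCm38.p6, each from 250 bases before to 50 bases after the start. The 10-base kB consensus, searched on both strands, occurred in at least 1 promoter of 7 of these 13 genes (Bcl3, Nfkb2, Nfkbia, Nfkbie, Rel, Tnfaip3 and Tnip1), and in 9.55% of all 27025 genes with a promoter. It occurred in 1 of 16 genes (6.25%) of the migratory markers outside the rule, in 1 of 11 of the 15 genes highest against both groups and in none of 4 genes of the rule. The AP-1 consensus TGANTCA occurred in 3 of the 13 and in 8.97% of all genes, and it did not overlap the kB matches shown. A match is a description of the letters and not a bound site. The NF-kappaB genes whose promoters held no kB match, Birc2, Birc3, Map3k14, Nfkbib, Rela and Traf1, were all higher against both groups. Of those with a match, Nfkb2, Nfkbia, Rel and Tnfaip3 were higher against both, Bcl3 and Nfkbie only against type 1 and Tnip1 against neither. Whether a match goes with a higher level was not tested. The promoters of Nfkbia (chr12:55492598-55492897, minus strand), Nfkb2 (chr19:46304487-46304786, plus strand, the first of 3 listed) and, for comparison, Ccl22 (chr8:94745434-94745733, plus strand) follow 5′ to 3′ on the gene's strand, with kB matches in capitals. The 11 bases in the first capital run of Nfkb2 hold 2 overlapping matches, and the Ccl22 window holds none.
Nfkbia: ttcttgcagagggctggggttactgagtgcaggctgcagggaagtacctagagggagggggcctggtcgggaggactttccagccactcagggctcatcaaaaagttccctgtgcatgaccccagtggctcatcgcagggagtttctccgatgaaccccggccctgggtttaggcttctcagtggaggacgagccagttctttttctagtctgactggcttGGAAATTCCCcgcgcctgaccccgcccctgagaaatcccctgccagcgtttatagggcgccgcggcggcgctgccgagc
Nfkb2: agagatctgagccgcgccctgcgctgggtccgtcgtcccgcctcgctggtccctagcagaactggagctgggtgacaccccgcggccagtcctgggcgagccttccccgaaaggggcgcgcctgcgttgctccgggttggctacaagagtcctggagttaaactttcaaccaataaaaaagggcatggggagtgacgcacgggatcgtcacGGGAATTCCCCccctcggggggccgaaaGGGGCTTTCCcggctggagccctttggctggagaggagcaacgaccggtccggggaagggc
Ccl22: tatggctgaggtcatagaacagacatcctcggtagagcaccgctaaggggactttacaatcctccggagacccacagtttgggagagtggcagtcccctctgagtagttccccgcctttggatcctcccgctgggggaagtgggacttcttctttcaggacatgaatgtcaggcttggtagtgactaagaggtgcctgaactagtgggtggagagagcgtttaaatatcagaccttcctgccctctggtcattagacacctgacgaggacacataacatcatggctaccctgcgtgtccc

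Co-stimulatory genes, whose products give T cells a signal beside the antigen receptor, were mostly higher. Of 9 tested against type 1, 7 were higher and 1 lower (median 3.18), and of 10 against type 2, 6 were higher and 1 lower (median 2.38). With 64 members, 9 of the 10 were higher than in type 2. Cd40 had 62 UMIs in 36 members, 6 in 5 type 1 cells and 22 in 17 type 2 cells, a log2 ratio of 5.33 (4.23 to 6.94) and 2.86 (2.16 to 3.65). At 1500 UMIs 23.9% of members, 0.408% of type 1, 1.96% of type 2 and 0.102% of alveolar type 2 epithelial cells had a Cd40 UMI, and without thinning 53.7%, 2.04%, 8.33% and 1.02%. Cd83 stood at 407, 44.8 and 21.9 CPM and Cd80 at 42.8, 2.83 and 5.47 CPM in members, type 1 and type 2. Cd86, which binds the same T cell receptor molecule as Cd80, did not share this: it had a log2 ratio of −0.70 (−1.38 to −0.12) against type 1 and 0.81 (0.02 to 1.55) against type 2, which with 64 members was 1.05. The TNF receptor family genes Tnfrsf4 and Tnfrsf9 had 76 and 44 UMIs in the members against 1 and 5 in type 1 and 0 and 2 in type 2 cells. Cd48, the lower gene, was past 2-fold with 67 members, at −1.02 and −1.21, and within it with 64, at −0.78 and −0.97.

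Regulatory molecules, most of them known to restrain T cells, differed in both directions. Of 12 regulatory genes tested against each group, 7 were higher than in type 1 and 3 lower, and 7 higher than in type 2 and 4 lower. Cd274 and Pdcd1lg2, the ligands of PD-1, had 35 and 30 UMIs in 23 and 17 members. Their log2 ratios were 2.93 (2.10 to 3.84) and 4.54 (3.27 to 6.38) against type 1, and 4.73 (3.26 to 7.27) and 4.51 (3.02 to 7.06) against type 2. Without the comparison cells that held alveolar macrophage genes the ratios against type 1 were 6.41 and 7.77, and that of Cd274 against type 2 was 7.33. Aldh1a2, the enzyme that makes retinoic acid, had 75 UMIs in 30 members, 2 in type 1 and 8 in type 2 cells. Fas, Cd200 and Socs1 were also higher against both. Pvr was too with 67 members, at 16 UMIs against 10 and 4, and with 64 it fell under the minimum of 20 UMIs against type 2, which left 6 of 11 genes higher. Havcr2, Tgfb1 and Socs3 were lower against both, with Havcr2, an inhibitory receptor, at 1 UMI against 114 and 43 and Tgfb1, an inhibitory cytokine, at 9 against 197 and 190.

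Antigen presentation differed by class. For MHC class II, which shows peptides to CD4 T cells, 7 of 15 genes were lower than in type 1 and 1 higher (median −0.94), and 11 of 15 were lower than in type 2 and 1 higher (median −1.78). With 64 members the counts were 7 and 2 against type 1 and 9 and 1 against type 2. The chaperone genes H2-DMb1 and H2-DMa had the lowest ratios of the list in both comparisons, while H2-DMb2, another gene of peptide loading, was within 2-fold of type 1. H2-DMb1, a chain of the chaperone, had 9 UMIs in 6 members, 1210 in 213 type 1 cells and 722 in 182 type 2 cells. Its level in the members ran from 0 to 1.69 per 10000, and the medians of type 1 and type 2 were 6.68 and 5.56. The log2 ratio was −4.93 (−6.14 to −4.07) against type 1 and −4.87 (−6.08 to −4.01) against type 2. The partner chain H2-DMa had 30 UMIs in 14 members and log2 ratios of −3.68 and −3.71. At 1500 UMIs H2-DMb1 was counted in 1.49% of members, 58.4% of type 1 and 57.8% of type 2 cells, and without thinning in 8.96%, 86.9% and 89.2%.

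The surface chains differed less than H2-DMb1 and H2-DMa. H2-Ab1 ran from 0 through 5.35 to 134 per 10000 in the members, with medians of 62.2 in type 1 and 76.0 in type 2, and its log2 ratio was −2.09 (−2.21 to −1.99) and −2.29 (−2.40 to −2.18). H2-Aa, H2-Eb1 and the invariant chain Cd74 lay between −0.77 and −0.94 against type 1 and between −1.19 and −1.27 against type 2. With 64 members H2-Aa and H2-Eb1 were within 2-fold of type 2, at −0.96 and −0.98. Against type 1, H2-Aa, H2-Eb1 and Cd74 were then at −0.71, −0.54 and −0.65. Under a stricter rule for type 1 cells they passed 2-fold, at −1.25, −1.10 and −1.16. With cells thinned to 1500 UMIs H2-Aa and Cd74 passed it, at −1.32 and −1.03, and H2-Eb1 did not, at −0.98. Ciita, the master activator of class II genes, had 6 UMIs in 4 members, 114 in type 1 and 78 in type 2 cells, a log2 ratio of −2.07 (−3.66 to −1.01) and −2.21 (−3.81 to −1.13). March1, a ligase that removes class II from the surface, had 3 UMIs against 85 and 56. The gene that was higher, H2-Eb2, had 23 UMIs in 20 members against 1 and 3, and belongs to a family with near-identical members whose reads may be shared. Ctss, the protease that trims the invariant chain, was within 2-fold against both groups.

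MHC class I genes, which serve presentation to CD8 T cells, went the other way. None of 16 was lower, while 6 were higher than in type 1 (median 0.85) and 11 higher than in type 2 (median 1.24). With 64 members H2-D1 and Psmb10 passed 2-fold as well, which made 8 and 13 higher. H2-K1 was in all 67 members at a median of 15.9 per 10000 (1.78 to 79.8), with medians of 5.73 in type 1 and 7.32 in type 2. Its log2 ratio was 1.33 (1.19 to 1.46) and 1.21 (1.07 to 1.36), and that of B2m, the shared light chain, 1.27 and 1.34. Psme2, a proteasome activator, had 2.00 (1.82 to 2.17) and 2.44 (2.22 to 2.66). Nlrc5, the class I counterpart of Ciita, had 15 UMIs against 11 and 10. The peptide transporter gene Tap1 and the immunoproteasome gene Psmb9 were higher than in type 2, at 1.13 and 1.26, and within 2-fold of type 1, at 0.33 and 0.03.

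**Figure D2:**
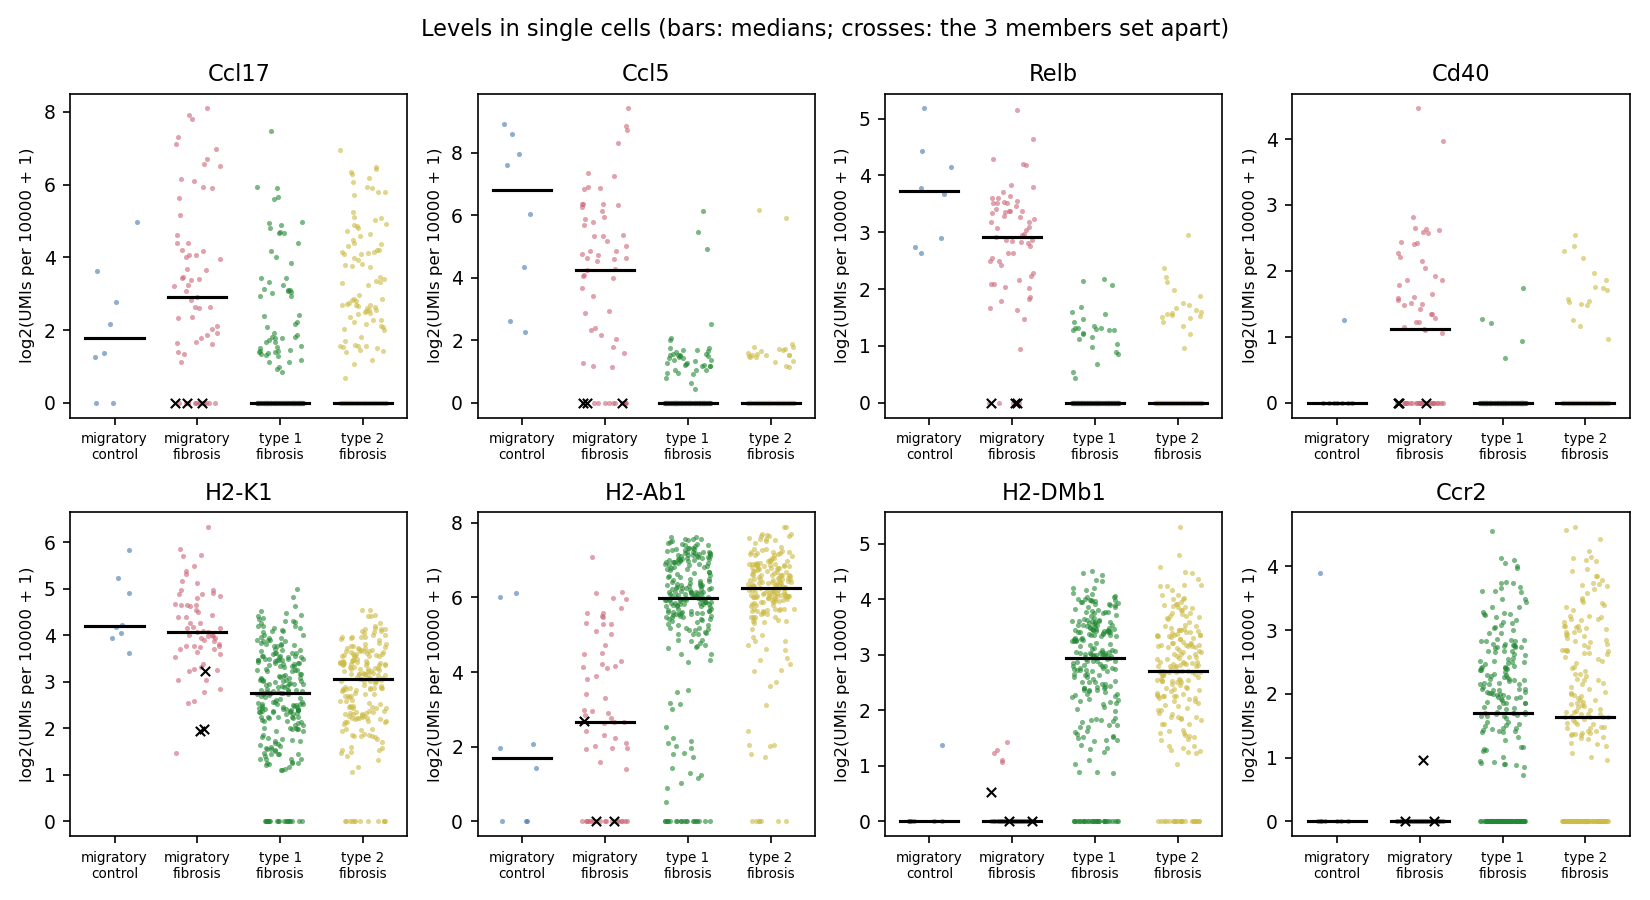
Levels in single cells as log2 of UMIs per 10000 plus 1, for 8 genes in the 8 control and 67 fibrosis members and in the 245 type 1 and 204 type 2 cells of the fibrosis library. Each point is a cell, bars are medians and crosses are the 3 members set apart. Ccl5, Relb and H2-K1 lie higher in the members and H2-Ab1, H2-DMb1 and Ccr2 lower, while Ccl17 overlaps between the groups.

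Receptors for chemotaxis differed in both directions. Of 8 tested genes 2 were higher and 4 lower than in type 1, and 3 higher and 4 lower than in type 2, in a list from which Ccr7 was left out. Their median log2 ratio was −0.55 against type 1 and −1.91 against type 2, and −1.10 and −3.47 with 64 members, where 3 of 8 genes were higher than in type 1 and 2 of 7 higher than in type 2. Ccr2, the receptor that brings monocytes and dendritic cell precursors into tissue, had 1 UMI in the 67 members, 523 in 160 type 1 cells and 370 in 131 type 2 cells. That UMI lay in 1 of the 3 members set apart, so none of the other 64 had any. Its log2 ratio was −6.38 (−12.27 to −4.48) and −6.56 (−12.46 to −4.66). Ccr1 was lower against both, with 1 UMI in the members. Cysltr1, a leukotriene receptor, had no UMI against 91 and 75, and was at least 7.23-fold lower than in type 1 and at least 9.58-fold lower than in type 2. Cxcr4 and Ptger4, a prostaglandin E2 receptor, were higher against both, at 1.69 and 3.09 against type 1 and 1.83 and 1.54 against type 2. S1pr1 was higher than in type 2 with 67 members, at 2.05, and not with 64, at 0.71.

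The cytoskeleton and adhesion list moved in both directions, with 6 of 22 genes higher and 4 lower than in type 1, and 6 higher and 5 lower than in type 2. The 6 were the same: Marcksl1, Basp1, Myo1g, Marcks, Icam1 and Adam8. Marcksl1, an actin-binding substrate of protein kinase C, had 539 UMIs in 61 members and a median of 12.6 per 10000, against 73 UMIs in type 1 and 105 in type 2 cells. The log2 ratio was 4.94 (4.60 to 5.33) and 3.74 (3.44 to 4.06). Icam1, a ligand of leukocyte integrins, stood at 174, 48.8 and 46.5 CPM. Itgb2, the beta chain of those integrins, had 7 UMIs in the members against 328 and 198, and Itgb7 and Coro1a were also lower against both. Was was lower against both with 67 members and within 2-fold of type 1 with 64, at −0.93, and the counts were then 7 higher and 4 lower, and 7 higher and 6 lower.

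Uptake receptors were lower almost throughout. Of 15 tested against type 1, 12 were lower and 1 higher (median −1.88), and of 13 against type 2, 11 were lower and 1 higher (median −2.36). With 64 members 11 of the 15 were lower than in type 1. Clec10a and Mgl2, lectins of the same family, had 0 and 3 UMIs in the members and 117 and 638 in type 2 cells. Clec10a was at least 14.9-fold lower than in type 2 cells against a floor of 3 UMIs. The Fc receptor gene Fcgr3 had 1 UMI against 80 in type 1 and 166 in type 2 cells, and Cd207 (langerin) 1 against 171 in type 1 cells. The exception was Ly75, the lectin DEC-205, with 46 UMIs in 28 members against 69 in type 1 and 4 in type 2, a log2 ratio of 1.49 (0.91 to 2.04) and 4.75 (3.45 to 6.84). Innate sensing genes were lower in 4 of 8 against type 1 and 2 of 4 against type 2 (3 of 4 with 64 members), with none higher, and Tlr3, a sensor typical of type 1 cells, had 2 UMIs against 221 there.

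Most cell cycle genes were lower in the members. Of 15 genes 13 were lower than in type 1 (median −4.30), 14 with 64 members, and of 10 tested 8 were lower than in type 2 (median −3.18). Top2a and Mki67 had no UMI in the 67 members, against 184 and 116 in type 1 and 83 and 32 in type 2 cells. Hmgb2, a chromatin protein, was not near 0, with 49 UMIs in 25 members against 1081 and 344. Pcna and Mcm3, genes of DNA replication, were within 2-fold of type 1 with 67 members, at −0.68 and −0.77. Top2a was at least 14.6-fold lower than in type 1 and at least 10.6-fold lower than in type 2 cells. Counting cells with at least 2 UMIs over 8 mitotic genes gave 1 of 67 members (1.49%, 0.0378 to 8.04), 39 of 245 type 1 cells (15.9%, 11.6 to 21.1) and 12 of 204 type 2 cells (5.88%, 3.08 to 10.0). The intervals of the members and of type 2 cells overlapped. None of the 8 control members counted, where a limit of 3 counts allows a share of up to 37.5%.

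Transcription factors of dendritic cells were higher in 8 of 16 against type 1 and 8 of 17 against type 2, with 2 lower in each, and in 9 of 17 against type 2 with 64 members. Stat4, Nr4a3, Relb, Etv3, Nfil3, Stat3 and Etv6 were higher against both. Irf8, on which type 1 cells depend, stood at 204 CPM in the members, 1314 in type 1 and 120 in type 2 cells. Irf4, the corresponding factor of type 2 cells, stood at 35.7, 3.97 and 68.3 CPM. Batf3 was counted in 51 members at 264 CPM, against 167 and 129 CPM. Of 8 general dendritic cell genes 4 were lower than in type 1, Kmo, H2-Ab1, Bcl11a and Itgax (list median −1.07). Against type 2 these and Cd74 were lower, 5 of 8 (list median −1.58), and none was higher in either comparison. Flt3 and Zbtb46 were within 2-fold of both groups, in 30 and 19 of the 67 members, though Zbtb46 passed it against type 2 with 64, at 1.05. Itgax was lower, at −1.29 and −1.89, but against type 1 it was within 2-fold, at −0.64, without the comparison cells that held alveolar macrophage genes and, at −0.92, under a stricter rule for type 1 cells.

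Traces of the resident lineages were low in the members. Xcr1 had 4 UMIs in 2 members, and Clec9a and Cd209a none in any. Of the type 1 markers outside the rule, 13 of 14 were lower in the members than in type 1 cells (median −3.29), with Itgae at 0 UMIs against 271 and Wdfy4 at 7 against 555. Of the type 2 markers 11 of 14 were lower than in type 2 cells (median −2.99). Summed over 14 genes, the type 1 list had a median of 6.41 per 10000 in the 64 members (0 to 60.3), 58.5 in type 1 and 9.97 in type 2 cells. The type 2 list had a median of 12.8 (0 to 44.4) in the members, 29.2 in type 2 and 6.98 in type 1 cells. S100a4 alone gave 851 CPM in the 67 members, beside 1269.8 for the type 2 list. The members overlapped with both resident types on both lists, and no member was assigned an origin. The 3 type 2 markers within 2-fold of type 2 cells were S100a4, Tnip3 and Irf4, with 358, 70 and 15 UMIs in the members, 73, 23 and 7 in type 1 and 826, 142 and 75 in type 2 cells.

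Other lists held single genes that stood out. Of the survival genes 3 of 10 were higher than in type 1 and 4 of 11 than in type 2 (4 of 10 and 4 of 11 with 64 members), among them Cflar, an inhibitor of death receptor signalling, at 2.39 and 2.47. Bcl2a1b, with 494 UMIs, was higher too, but belongs to a family of near-identical copies. Of the genes that sense type 2 cytokines, Il7r had 58 UMIs in 32 members against 12 and 32, a log2 ratio of 4.29 (3.43 to 5.37) and 2.23 (1.60 to 2.91). Il4ra was higher than in type 1, at 1.95, and not past 2-fold against type 2, at 0.56. Il1rl1, the interleukin 33 receptor, had 2 UMIs against 66 in type 2 cells. Of the interferon-stimulated genes, 5 of 9 were higher than in type 1 and 4 of 8 than in type 2, with Gbp2 at 4.49 and 3.98 and Mx1 at 2.71 and 3.23. Isg15 was higher than in type 1, at 1.47, and not past 2-fold against type 2, at −0.43.

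Of the lipid genes 3 of 11 were higher than in type 1 (median 0.13) and 2 of 10 than in type 2 (median 0.40). With 64 members 3 of 11 and 4 of 9 were higher and the medians were −0.24 and 0.47. Fabp5, a fatty acid binding protein, had 1224 UMIs in 63 members. It had a median of 19.5 per 10000 (0 to 164) and log2 ratios of 3.02 (2.88 to 3.16) and 4.03 (3.81 to 4.26). At 1500 UMIs it was in 79.1% of members, 15.5% of type 1 and 18.6% of type 2 cells, and in 73.8% of alveolar type 2 epithelial cells, which therefore give no background for this gene. Without thinning these shares were 94%, 29.8%, 32.8% and 91.7%. Among lysosome and tetraspanin genes, Cd63 stood at 961, 199 and 56.5 CPM, Lamp1 at 262, 121 and 118 CPM and Tmem176a at 732, 53.3 and 354 CPM, which against type 2 was 1.05 and with 64 members 0.97. Of the 18 genes of that list 6 were higher and 3 lower than in each group, and with 64 members 6 higher and 6 lower than in type 1 and 5 and 5 than in type 2. Lyz2, which encodes lysozyme, was lower at −3.57 and −2.97.

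**Figure D3:**
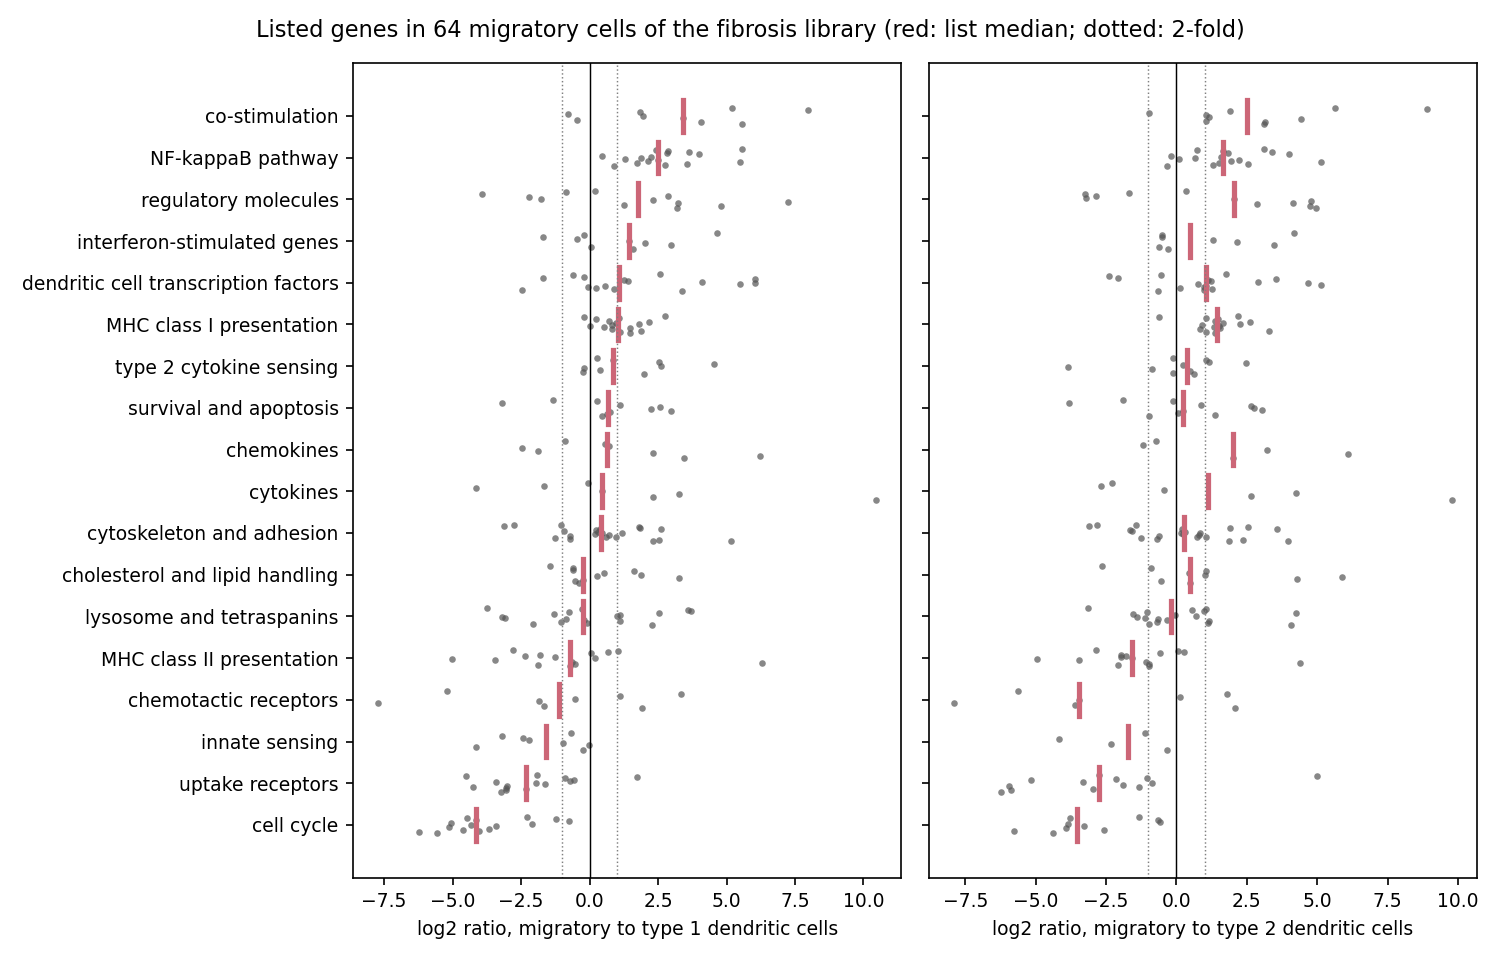
Log2 ratios of the tested genes of 18 lists, in 64 fibrosis members (without the 3 set apart) against type 1 (left) and type 2 cells (right) of the fibrosis library. Each point is a gene, the red mark is the list median, and dotted lines mark 2-fold. Co-stimulation and NF-kappaB genes lie to the right of 0, cell cycle and uptake receptor genes to the left, with single genes on the other side in most lists, and chemotactic receptor genes on both sides.

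Genes were also ranked over the whole table by the less extreme of their limits against type 1 and type 2. The 15 highest were Apol7c, Il12b, Nudt17, Tnfrsf4, Ccl5, Gm13546, H2-M2, Rgs1, Col3a1, Col1a1, Tspan3, Col1a2, Gadd45b, Relb and Fxyd4. Apol7c, an apolipoprotein L family gene, led with 240 UMIs in 34 members and 1 UMI in each comparison group, log2 ratios of 9.39 (7.48 to 15.28) and 8.71 (6.80 to 14.60). Rgs1, a brake on chemokine receptor signalling, had 177 UMIs against 9 and 8, Tspan3 428 against 34 and 35, and Gadd45b, a stress-induced gene, 265 against 16 and 22. Col1a1, Col1a2, Col3a1 and Fxyd4 rank here through the members set apart. Their 53, 78, 92 and 68 UMIs were 0, 0, 2 and 2 in the other 64 members. The 15 lowest were Ccr2, Fam105a, H2-DMb1, Tm6sf1, H2-DMa, Arhgap15, Top2a, 2810417H13Rik, Plbd1, Plac8, Ms4a6c, Ryr1, Alox5ap, Sla and Lyz2. Alox5ap, the activator of leukotriene synthesis, had 28 UMIs in 16 members against 1315 and 752. Fam105a, Arhgap15 and Ryr1 had no UMI in the members, against 281, 145 and 122 in type 1 cells.

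The members themselves ranged widely in MHC class II. Summed over the 15 listed genes, it ran from 31.9 to 687 per 10000 in the 64 fibrosis members, with a cut at 138 between 32 lower and 32 higher cells. Type 1 cells had a median of 361 and type 2 cells of 497. The split and the genes compared were chosen after the values had been seen, and the sides had similar depth, with medians of 4887 and 5635 UMIs. Only 3 cells lay within 10% of the cut. The lower side held 1679 of the Ccl5 UMIs and the higher side 427, a log2 ratio of −2.17 (−2.33 to −2.02) for higher to lower. Ccl17 was the reverse, with 834 UMIs on the higher and 388 on the lower side, 0.90 (0.73 to 1.08). Fscn1, a gene of the rule that chose the members, had 415 UMIs on the lower and 253 on the higher side. Il12b had 97 and 46, of which a single cell gave 86, and Serpinb9, an inhibitor of granzyme B, 67 and 28. The interferon-responsive genes Irf1 and Gbp2 had 35 and 32 UMIs on the lower and 12 and 11 on the higher side. Cd40, Cd83 and Relb differed little, at 0.08, −0.25 and 0.04. S100a8 and S100a9 led the higher side with 543 and 414 UMIs, of which single cells gave 254 and 192. Just 3 members that held neutrophil markers gave 254, 204 and 65 of the S100a8 UMIs.

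Across the 64 members Ccl17 and Ccl22 had a Spearman correlation of 0.62, Ccl5 and Ccl17 of −0.38, Ccl5 and the class II list of −0.47 and Ccl17 and the class II list of 0.40. Ccr7 and Fscn1 had 0.10. Ccl22, Ccr7 and Fscn1 are genes of the rule that chose the members, so the choice limited their spread and these values are a description. In all 16 pairs were computed on cells of 1 library that share depth and free RNA. UMIs per cell had 0.19 with Ccl5, 0.20 with Ccl17 and 0.17 with the class II list. With a level of 10 per 10000 as the limit, 26 members were above it for Ccl5 alone, 15 for Ccl17 alone, 12 for both and 11 for neither. In the control library, whose cells had no part in choosing the split, the 2 members with the most H2-Ab1 UMIs (40 and 36) had 12 and 2 Ccl5 UMIs. The 4 control members with the most Ccl5 (276, 149, 137 and 66) had 0, 1, 0 and 1 H2-Ab1 UMIs, and the other 2 had 40 Ccl5 with 2 H2-Ab1 UMIs and 3 with 0, so low H2-Ab1 also occurred with low Ccl5.

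**Figure D4:**
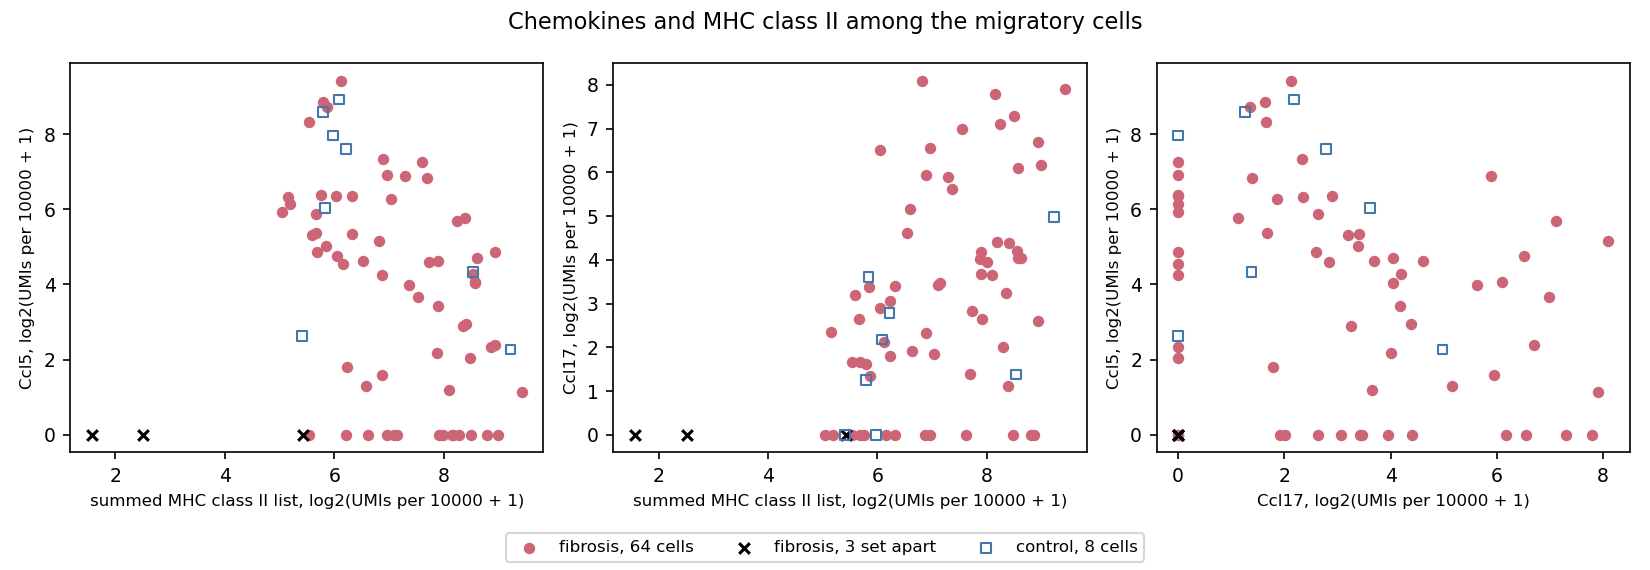
Ccl5 and Ccl17 against the summed MHC class II list, and Ccl5 against Ccl17, in single migratory cells, on axes of log2 of UMIs per 10000 plus 1. Filled points are 64 fibrosis members, crosses the 3 set apart and squares the 8 control members. Cells with high Ccl5 lie mostly at low class II levels, and cells with high Ccl17 at higher ones, with many exceptions.

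Between libraries the members were compared with only 8 control cells on 1 side. Of 2561 genes with at least 20 UMIs, 396 (15.5%) were at least 2-fold higher and 257 (10.0%) at least 2-fold lower in the fibrosis members. With 64 members the higher genes were 254. The median ratio of all tested genes was −0.04, and −0.03 with 64 members. Among the 10 highest by the limit nearest 1 were Retnla, Wfdc2, Mgp, Sftpd, Chil1, Scgb1a1, Sftpa1, Gsn and Slc34a2, most of which are secreted products of epithelium or stroma. The 3 members set apart moved most of them. Mgp, with 1 control UMI, changed from 4.91 (3.01 to 10.80) to 0.01 on the log2 scale without them, and Sftpa1, with 13, from 3.11 (2.38 to 4.07) to −0.04. Chil1 went from 349 to 13 UMIs and Gsn from 340 to 24. Rps27rt and Wdr89, lower at −2.58 and −2.05, also differed in type 1 (−1.72 and −1.65) and type 2 cells (−1.78 and −1.84).

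The 10 genes lowest in the fibrosis members were Tnfrsf11b, Plac8, Lyz2, Rps27rt, Uap1, Ramp3, Rgs1, Ccl5, Ifitm3 and Wdr89, and 7 of them rested mostly on 1 of the 8 control cells. A single control member, the one that held 19 UMIs of the monocyte list, gave 150 of the 164 Lyz2 UMIs and 31 of the 32 Plac8 UMIs. It also held 28 of the 29 Ifitm3 UMIs and all 8 of Ccr2. Another held 62 of 72 Rgs1 UMIs, 25 of 28 of Uap1, and all 22 of Tnfrsf11b and 24 of Ramp3. Tnfrsf11b encodes a decoy receptor of the TNF family. Leaving out the highest cell moved the control level of Rgs1 from 1678 to 273 CPM, beside 421 CPM in the fibrosis members.

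Ccl5 was different, since all 8 control members held it, at 12, 3, 40, 66, 137, 276, 149 and 2 UMIs. The median was 129 per 10000 in the control members and 18.1 in the fibrosis members, and the ranges overlapped (3.81 to 483 and 0 to 684). The log2 ratio of fibrosis to control was −1.67 (−1.80 to −1.55), and −1.43 with 64 members. Without the highest control cell the control level was 11446 CPM in place of 15962, beside 5008 CPM in the fibrosis members. In type 1 and type 2 cells Ccl5 was higher in the fibrosis library, at 1.69 and 1.78, though few of these cells held it. Ccl17 went the other way in the members, with 28 control UMIs in 6 cells and 1222 fibrosis UMIs in 51, a log2 ratio of 2.13 (1.62 to 2.75), while it was within 2-fold in type 1 and type 2 cells. Fabp5 was at 2.35 (1.80 to 3.03), beside 1.29 and 0.51.

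The pathway lists were also compared between libraries. Of 14 NF-kappaB genes tested 3 were higher and 4 lower in the fibrosis members (median −0.51), and 3 and 2 with 64 members, where Relb and Tnfaip3 were within 2-fold. Of 10 MHC class II genes none was higher and 1 lower (median −0.16), and of 14 class I genes none was higher and 1 lower (median −0.33). Of 23 migratory markers outside the rule 3 were higher, Ccl17, Nr4a3 and Cd40, the last 2 with 0 and 1 control UMIs, and 4 lower, H2-M2, Slco5a1, Il15ra and Relb. Relb and Il15ra were within 2-fold with 64 members, at −0.81 and −0.89. Of 8 genes that sense type 2 cytokines none was higher and 4 were lower, Il4ra, Il13ra1, Stat6 and Crlf2, the last within 2-fold with 64 members. Of 8 co-stimulatory genes 3 were higher, Cd40, Tnfrsf4 and Cd48, and 1 lower, Tnfrsf9. The background was 15.5% higher and 10.0% lower. Markers of other cells also differed in summed counts: all 3 neutrophil genes tested were higher in the fibrosis members, with a median of 2.5, and 2.71 with 64 members. Just 3 fibrosis members, all among the 64, held 453, 378 and 135 UMIs of the neutrophil list. Per cell the list had a median of 2.40 per 10000 in the fibrosis members and 3.06 in the control members. The part of neutrophil markers in these results was not tested. At 8 control cells a 2-fold difference in a gene of few UMIs was not detectable.

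**Figure D5:**
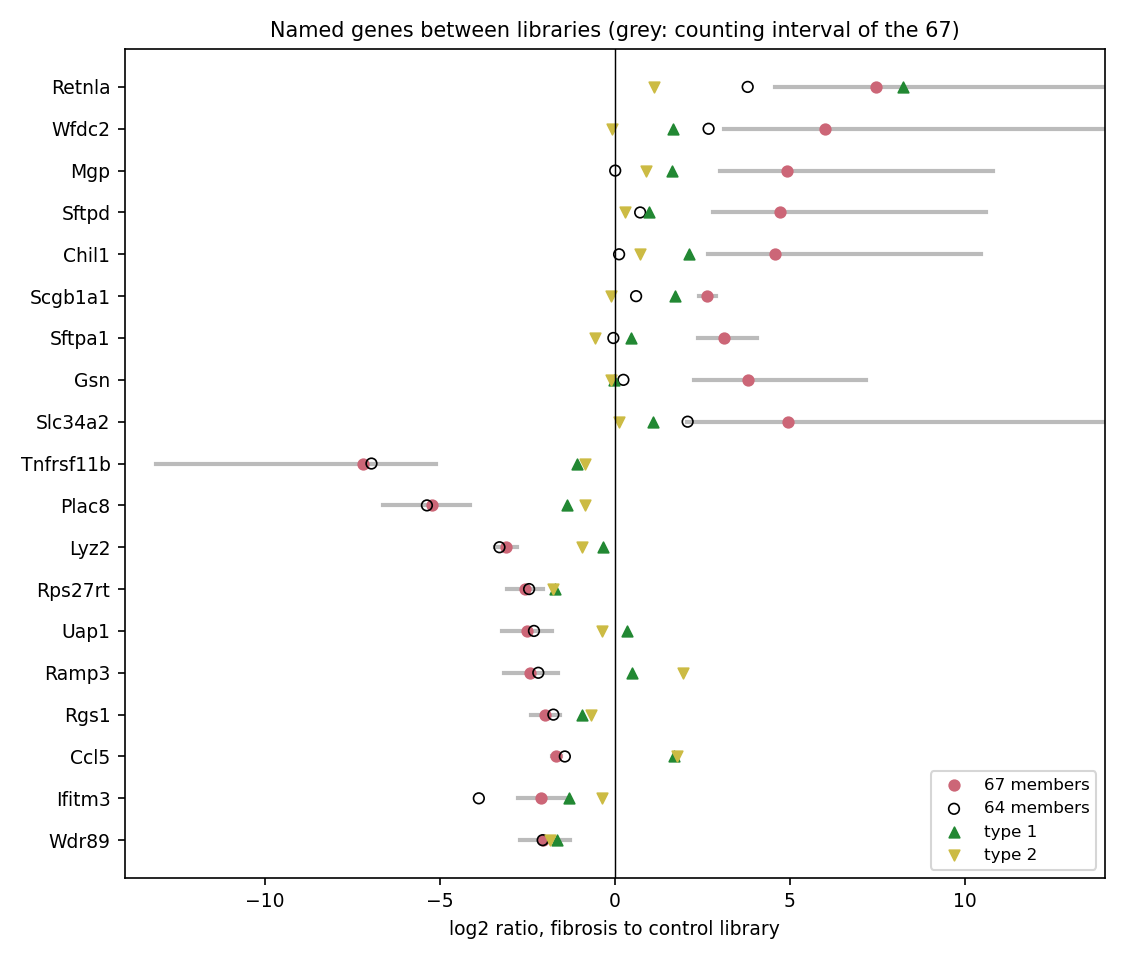
Log2 ratio of the fibrosis to the control library for 19 genes named by rank, in 67 members (filled, with the counting interval in grey, running off the plot where it has no upper limit), in 64 members (open) and in type 1 and type 2 cells (triangles). Most genes to the right of 0 move towards 0 without the 3 members set apart, Rps27rt and Wdr89 differ the same way in all 3 groups, and Ccl5 lies left of 0 in the members and right of it in type 1 and type 2 cells.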

How the data were processed

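RNA of single lung cells was measured in 2 libraries, 1 control and 1 fibrosis mouse. The deposited files hold raw UMI counts per gene and cell, made with bcl2fastq and Cell Ranger 1.3 on mm10, per the submitters' processing notes, and the annotation is not given in the sources used here. Of 27998 gene IDs 98.7% matched GENCODE M21. Cells over 10% mitochondrial UMIs were left out, and no doublets were removed (Scrublet's scores, run in scanpy 1.11.5, marked 0.162% of control and 2.38% of fibrosis cells at its own threshold). The kept cells held 35708937 control and 37222493 fibrosis UMIs.

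Type 1 cells had Xcr1 or Clec9a, and type 2 cells at least 2 Cd209a UMIs. Counts were summed per library and cell group, and log2 ratios of CPM (0.5 UMIs added, at least 20 UMIs in both groups together) carry exact intervals. A gene was called at 2-fold. With 1 library per group no test across samples was possible. Shares of cells were also computed after thinning each cell to 1500 UMIs. Named genes were the 15 highest and 15 lowest against both dendritic cell types, and the 10 highest and 10 lowest between libraries, by the interval limit nearest 0. A gene of the list of chemotactic receptors and a gene named by rank are not reported here and were left out of the gene tables. The members and lists were chosen with earlier results of these data known. The code, in Python 3.11.15 with numpy 2.4.6, scipy 1.17.1, pandas 2.3.3 and matplotlib 3.10.9, was tested on simulated data. Alternatives covered the rule, mitochondrial limit, depth, doublets, UMI minimum, pseudocount and members left out.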

Additional observations from a re-analysis of the deposited data

Results flagged for a closer look

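Ccl5 went in opposite directions between the libraries in different dendritic cells. The fibrosis to control log2 ratio was −1.67 (−1.80 to −1.55) in the members, while it was 1.69 in type 1 and 1.78 in type 2 cells. With 1 library per group the difference between these ratios was not tested. Among the members Ccl5 had 2106 UMIs in 50 of 67 fibrosis cells and 685 in all 8 control cells, and a single control cell gave 276 of the latter.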

How the results depend on the processing

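No paired analysis was possible because each group had 1 library. Of 2460 gene values under alternatives, 2205 stayed within the counting interval of the main setting. Another 250 moved outside it, and 5 that were called at 2-fold turned sign. Of 542 summaries 510 stayed, 30 moved and 2 turned sign. Counts of genes were judged there by a limit on their fold change, and shares and list medians by an interval. The share difference in kept cells was 0.865 points, and 0.50 with cells thinned to 1500 UMIs. Against type 1, the 856 higher and 1477 lower genes became 215 and 311 after thinning, 2727 and 2706 with at least 1 UMI, and 439 and 756 with at least 50. Against type 2, the 789 and 1145 became 185 and 255, 3368 and 2361, and 387 and 571. Between libraries, the 396 and 257 became 57 and 27, 1005 and 4039, and 122 and 55. The lower genes against type 1 were 2265 without the 11 members that held another lineage's markers, an alternative added after seeing the data, as were those that leave out the 3 members set apart, the deepest member or the macrophage-marked comparison cells. Between libraries the counts were then 227 and 161, and the higher genes were 254 without the 3 and 252 with at least 2 Ccr7 UMIs. Some list medians moved: lipid genes against type 1 to 1.62 without the macrophage-marked cells, survival genes against type 2 to 2.77 after thinning, and innate sensing against type 2 to −1.73 as a mean over cells, −0.35 with at least 1 UMI, −2.16 without the 11 members and −1.79 without the deepest. With at least 1 UMI chemotactic receptors turned to 0.54 against type 2, and interferon-stimulated genes to −0.21 against type 1, where the added genes have few UMIs. Against type 1 a stricter rule for comparison cells moved H2-M2 from 6.04 to 8.90, Gadd45b from 6.08 to 7.71 and Il7r from 4.29 to 6.01. The median of chemotactic receptors against type 1, −0.55 and within 2-fold, ran from −1.66 to 0.86 over the alternatives. Between libraries Scgb1a1 turned to −0.29 without the 11 members, Sftpa1 to −0.033 with at least 2 Ccr7 UMIs, −0.043 without the 3 and −0.23 without the deepest, and Lyz2 to 0.23 after thinning. Beyond these constructions the cause was not tested. The 8 control cells limit every comparison between libraries.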
